A study of Mus musculus with 35 samples.

Results

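The comparison described here set naive CD8 T cells of the spleen with both Dot1l alleles floxed against cells in which 1 allele was floxed and 1 was wild type. It took in 8 of the 35 libraries of the series, chosen by their labels: 4 labelled KO naive and 4 labelled Het naive. CD8 T cells are the lymphocytes that kill infected or malignant cells, and naive cells are those that have not yet met their antigen. All mice were C57BL/6 and carried Lcre+/-, so Cre was shared by every group. The KO mice were Lcre+/-;Dot1Lfl/fl, the Het mice Lcre+/-;Dot1Lfl/wt and the WT mice, used as the background, Lcre+/-;Dot1Lwt/wt. The labels do not expand Lcre, and they give neither the age of the mice nor the part of Dot1l that is floxed. Naive cells were sorted from spleen by surface markers, and were CD44-. The thymus CD8 and memory CD8 libraries of the same genotypes served to ask whether an effect differed between subsets. RNA was measured by strand-specific mRNA sequencing. Whether each replicate is a mouse of its own is not labelled, so a p-value here speaks for the spread among these libraries.

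DOT1L is the enzyme that methylates lysine 79 in the core of histone H3, a mark laid down along transcribed genes. It acts with partners that also bind the machinery of transcript elongation, and it is best known from leukaemias in which it holds HOXA genes and their cofactors active. In T cells the balance between the naive state and effector or memory states is set by transcription factors such as TCF1 and LEF1 on the one side and T-bet, Eomes and BLIMP1 on the other. Levels below are CPM (counts scaled to a common library size, as labelled on the plots) after TMM scaling, a correction for differences in library composition. Differences are log2 fold changes ± standard error. A gene was called when its adjusted p-value over all 10296 tested genes was below 0.05.

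The 4 Het naive libraries held 8454092 to 10814562 counts and the 4 KO naive libraries 8555891 to 11520379. Each of these groups had 1 female library, replicate 3 in both, and 3 male ones. Sex was judged from the counts of Xist against those of Ddx3y, Kdm5d, Eif2s3y and Uty. A single gene, Actb, took 87398 CPM of the Het libraries on average. The markers of CD8 T cells were present, with Lck at 874 to 962 CPM in Het and 811 to 1035 CPM in KO, but Cd8a had only 54 to 116 counts per library. Levels are therefore compared gene by gene between libraries. Where levels of different genes are set side by side below, they describe the counts only. A pair of KO libraries stood apart. KO replicate 4 had the highest summed level of the 20 B cell markers, 516 CPM against 194 to 240 CPM in the other 7 libraries, and of the 18 myeloid markers, 18.8 CPM against 1.08 to 5.61 CPM. KO replicate 3 was the highest KO library for Cd44, Bhlhe40 and the other memory genes described below. Calls of named genes that were lost without either library, or without both, are given with that value. Of the 104 named genes, 41 overlap an annotated gene on the opposite strand, Runx2 (with Supt3), Itga4 (with Cerkl), Plek (with Cnrip1) and Gas7 (with Glp2r) among them, and the strand setting of the counting is not given in the sources used here.

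The Dot1l transcript itself could not check the genotypes. Its level over the whole gene (chr10:80755206-80795461, GRCm38) was 50.5, 49.8, 52.2 and 56.1 CPM in the Het libraries and 57.1, 56.0, 55.6 and 54.0 CPM in the KO libraries. The WT libraries were at 47.2, 50.8, 51.6 and 48.3 CPM. The KO against Het difference was 0.09 ± 0.08 (adjusted p = 0.515). A count over all exons does not separate transcripts with and without a floxed part, and the annotated antisense gene Gm17151 lies on the other strand.

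No gene was called between Het and WT naive cells, and many were called between KO and Het. Of 10296 tested genes, 0 (0%) were called between Het and WT by edgeR's quasi-likelihood test, and 0 by DESeq2. The number with an unadjusted p below 0.05 was 275, which is 2.67% of the tested genes. Between KO and Het, 1745 genes (16.9%) were called, 1076 higher (10.5%) and 669 lower (6.5%) in KO. Counts of called list members below are to be read beside these shares. KO against WT gave 1879 calls (18.2%), 1147 higher (11.1%) and 732 lower (7.11%). Genes whose 4 KO and 4 Het values did not overlap numbered 1983 (19.3%). The median absolute log2 fold change over all tested genes was 0.09 for Het against WT and 0.17 for KO against Het, at a median standard error of 0.15 in both comparisons. Differences well above that error could also go uncalled between Het and WT. Plxna1, for example, at 0.76 ± 0.16, had an adjusted p of 0.333 in the edgeR test. The 0 calls therefore do not exclude Het against WT differences of that size at single genes. In a principal component analysis of the 12 naive libraries, the first component held 40.6% of the variance. It placed the KO libraries between 33.9 and 45.8, the Het libraries between -20.6 and -13.1, and the WT libraries between -33.7 and -12.2.

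Taken over all called genes, gains in KO were larger than losses and came at lower levels in Het, while large differences of either sign came at low levels. Among called genes, the median difference was 1.10 for those higher and -0.37 for those lower. Genes called higher by over 1 on the log2 scale numbered 574 (5.57% of the tested genes), while 43 (0.418%) were lower by that much. The median level in Het was 13 CPM for all tested genes, 4.04 CPM for genes called higher and 87.9 CPM for genes called lower. It was 0.745 CPM for the 574 genes higher by over 1. For the 43 lower by over 1 it was 3.82 CPM, with 58.1% of them below 5 CPM. A gene present only in KO could pass the filter on low counts through that group alone. Small differences are also easier to call at high counts. These levels therefore describe the calls and are not a test. Called genes also spanned more of the genome: the median gene span was 24.7 kb for all tested genes, 39.1 kb for those called higher and 46.5 kb for those called lower. When each library was instead centred on its mean log level, the median gene shifted by -0.14. The split of calls then went from 61.7% higher to 29.0% higher, with 829 genes higher and 2025 lower. Small differences of either sign, within about that shift, depend on this choice of zero.

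**Figure D1:**
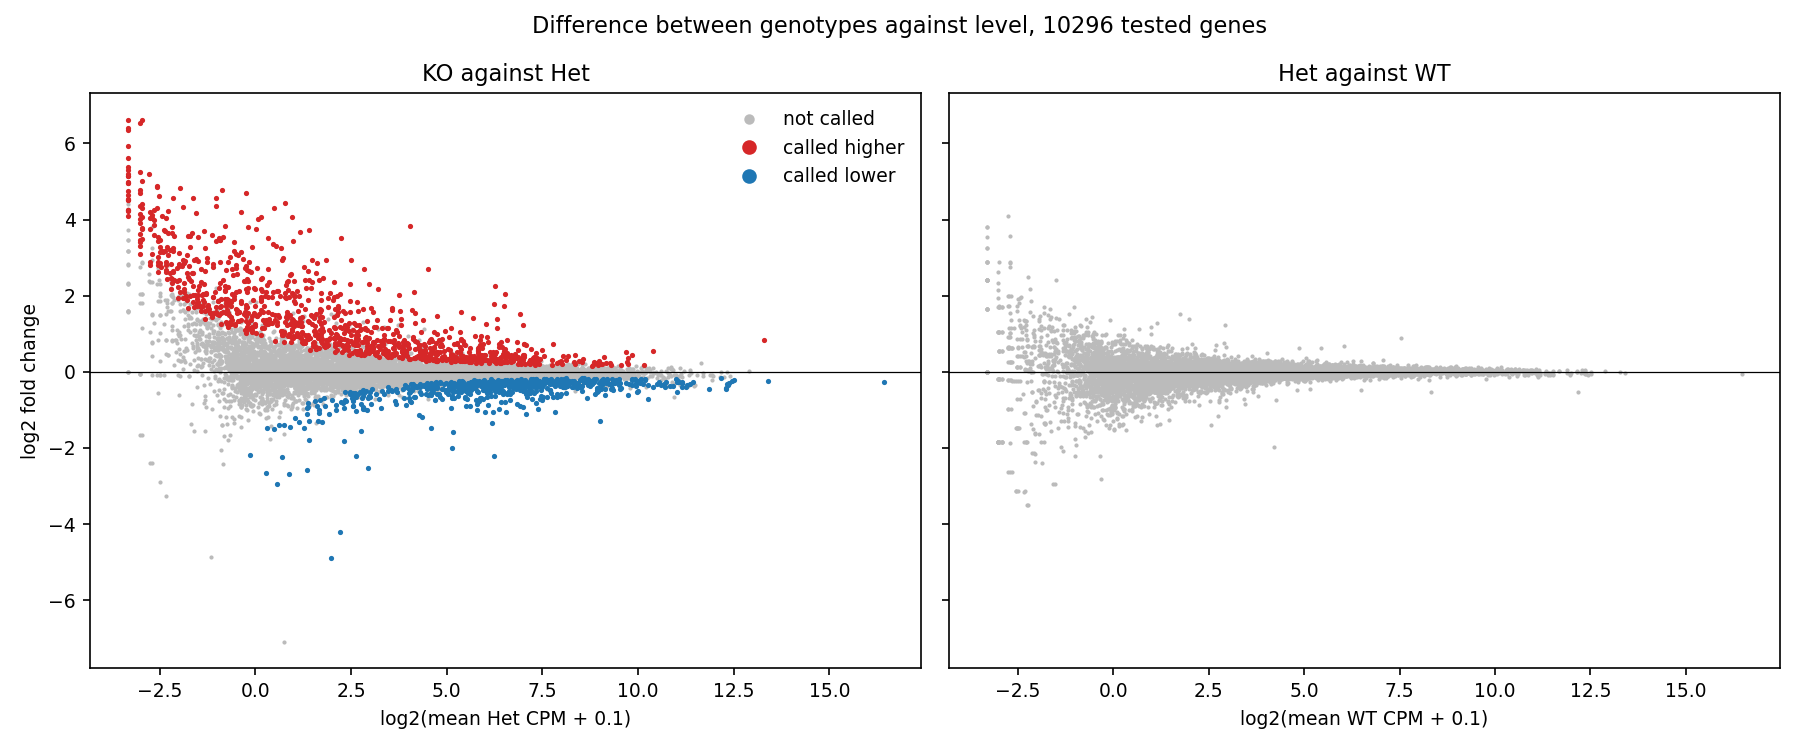
Log2 fold change of each of the 10296 tested genes (y axis) against its mean level in the group it is compared with (x axis, log2 of CPM + 0.1), for KO against Het (left) and Het against WT (right). Coloured points are called genes, 1076 higher and 669 lower on the left and 0 on the right, with the larger gains at low levels.

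Genes of effector CD8 T cells rose in KO cells. Of the 17 effector genes tested, 14 were called higher and 0 lower, with a median difference of 2.1 against 0.002 over all tested genes. Tbx21, which encodes the effector transcription factor T-bet, stood at 16.3, 14.6, 20.9 and 18.4 CPM in the Het libraries and at 69.0, 47.3, 126 and 58.3 CPM in the KO libraries. The groups did not overlap, replicate 3 was the highest in KO, and the difference was 2.1 ± 0.26 (adjusted p = 5.99e-07). The WT libraries were at 13, 11.5, 23.3 and 15.1 CPM, a Het against WT difference of 0.12 ± 0.28. In bulk samples a higher level in each cell and a larger share of cells of another state cannot be told apart.

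Bhlhe40, a transcription factor induced in effector cells, had 0.688, 1.39, 0.709 and 1.01 CPM in Het and 12.4, 11.0, 26.4 and 12.8 CPM in KO. Every KO library was above every Het library, by 4.01 ± 0.27 (adjusted p = 6.39e-14). Ccl5, a chemokine stored by memory and effector CD8 T cells, stood at 11.6, 14.2, 24.5 and 15.6 CPM in Het and 168, 127, 452 and 189.6 CPM in KO. That difference was 3.84 ± 0.48 (adjusted p = 8.49e-07), and 3.17 without KO replicates 3 and 4. The calcium-binding protein gene S100a6 went from 1.62 ± 1.04 to 35 ± 10.8 CPM (mean ± SD, n = 4 each), a difference of 4.45 ± 0.42. For the membrane-binding annexin gene Anxa2 the means were 22.6 ± 5.27 and 146 ± 45.5 CPM, a difference of 2.69 ± 0.20. Fasl, the death ligand of killer cells, had 0 counts in the 4 Het libraries together and 47 in KO, at least 14.7-fold higher when 3 counts over the Het group are taken as the floor. The effector genes not called were Lgals3, Id2 and Prf1, the last encoding perforin, at 0.488 ± 0.254 CPM in Het and 0.462 ± 0.111 CPM in KO. Without KO replicates 3 and 4 together, 12 effector genes were called higher, and 10 when the fit held the compared libraries only.

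Genes of memory and virtual memory cells also rose. Virtual memory cells are CD8 T cells that acquire memory features without having met a foreign antigen. Of 19 such genes tested, 14 were called higher and 0 lower, with a median difference of 1.60. With the compared libraries only, 10 were called higher, and 1 was called lower under the replicate block, under mean log centring and without KO replicate 3, alone or with KO replicate 4. Eomes, the transcription factor that marks them, stood at 49.6, 64.9, 47.3 and 45.2 CPM in Het and 142, 116, 181 and 117 CPM in KO. All 4 KO libraries lay above the Het range, by 1.42 ± 0.16 (adjusted p = 1.70e-07). Il2rb, the receptor chain through which interleukin-15 sustains memory cells, had 3.73, 4.85, 5.67 and 4.79 CPM in Het and 13.6, 11.9, 23.5 and 8.87 CPM in KO. Its difference was 1.60 ± 0.20 (adjusted p = 6.99e-08), with replicate 3 again the highest. Itgb1, the integrin beta 1 chain, went from 75.1 ± 2.94 to 261 ± 156 CPM, a difference of 1.79 ± 0.22 that was 1.17 without KO replicates 3 and 4. The chemokine receptor gene Cxcr3 went from 1.08 ± 0.194 to 3.61 ± 0.850 CPM (difference 1.72 ± 0.30, adjusted p = 3.72e-05).

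Cd44 encodes a surface protein used to sort these cells, so its values are given with that limit. Cd44 was at 1.18, 1.68, 2.36 and 1.56 CPM in Het and 5.49, 5.91, 18.0 and 6.30 CPM in KO. No library of one group reached the other, and KO replicate 3 was far above the other 3 KO libraries. The difference was 2.38 ± 0.32 (adjusted p = 8.67e-07), and 1.75 without KO replicates 3 and 4. In WT, Cd44 had 2.60, 1.53, 4.26 and 2.72 CPM, a Het against WT difference of -0.78 ± 0.38 that was not called.

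**Figure D2:**
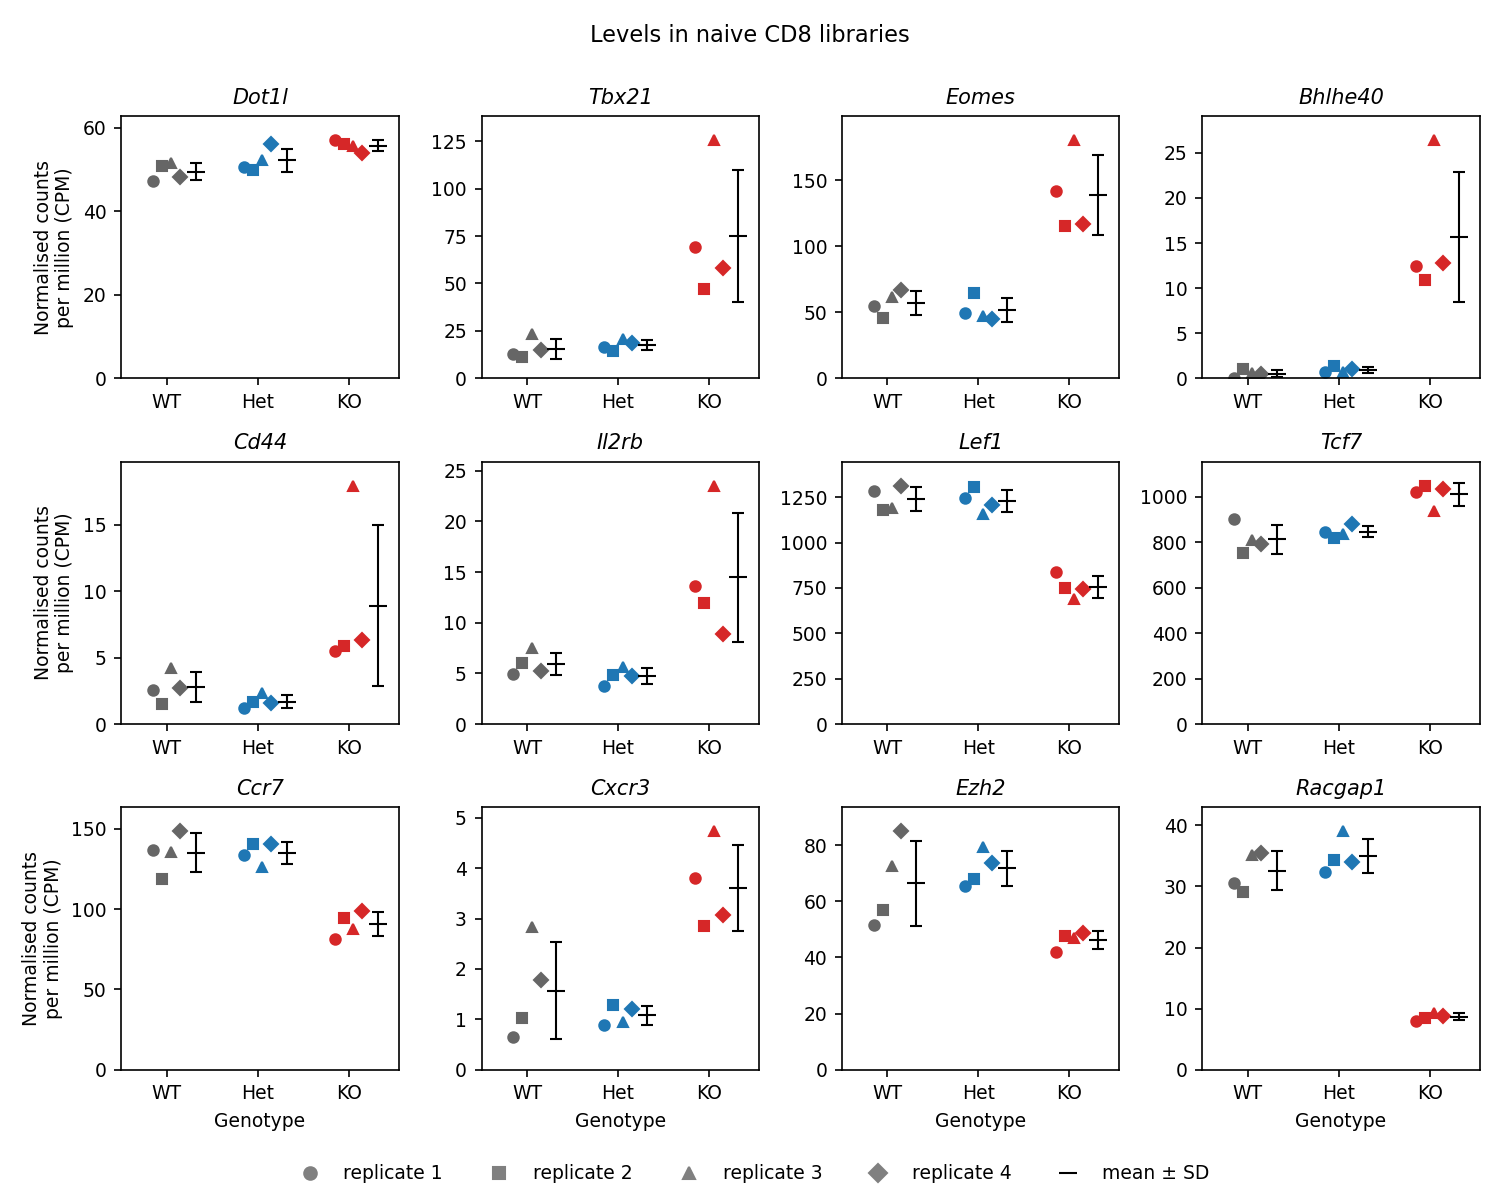
Normalised level (CPM, y axis from 0) of 12 genes in each naive library by genotype (x axis), with replicates 1 to 4 as separate symbols and the mean ± SD (n = 4) in black. WT and Het libraries overlap at each of these 12 genes, and KO libraries lie apart from Het for all but Dot1l.

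A summary was made over genes chosen from the WT libraries. WT memory against WT naive libraries gave 1551 calls (15.1%), 791 higher (7.68%) and 760 lower (7.38%). The 267 genes called higher by over 1 on the log2 scale were averaged as centred log2 CPM in each library. This level was -0.94 ± 0.24 in WT naive, -0.84 ± 0.12 in Het naive and 0.39 ± 0.33 in KO naive libraries (SD, n = 4 each). The WT memory and Het memory libraries were at 0.94 ± 0.17 and 0.94 ± 0.14, and the KO memory libraries at 1.5 ± 0.07. The WT naive and WT memory means are equal and opposite by construction, since each gene was centred midway between those group means. The 4 KO naive libraries ranged from 0.09 to 0.86, all above every Het and WT naive library. KO replicate 3 was the highest, above the lowest WT memory library at 0.72, and the other 3 were below all WT memory libraries. The KO naive mean lay 1.23 above the Het naive mean, and 1.07 to 1.35 above it when single libraries were left out. Of the 267 genes, 175 were called higher in KO against Het, 6 lower and 86 in neither direction.

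**Figure D3:**
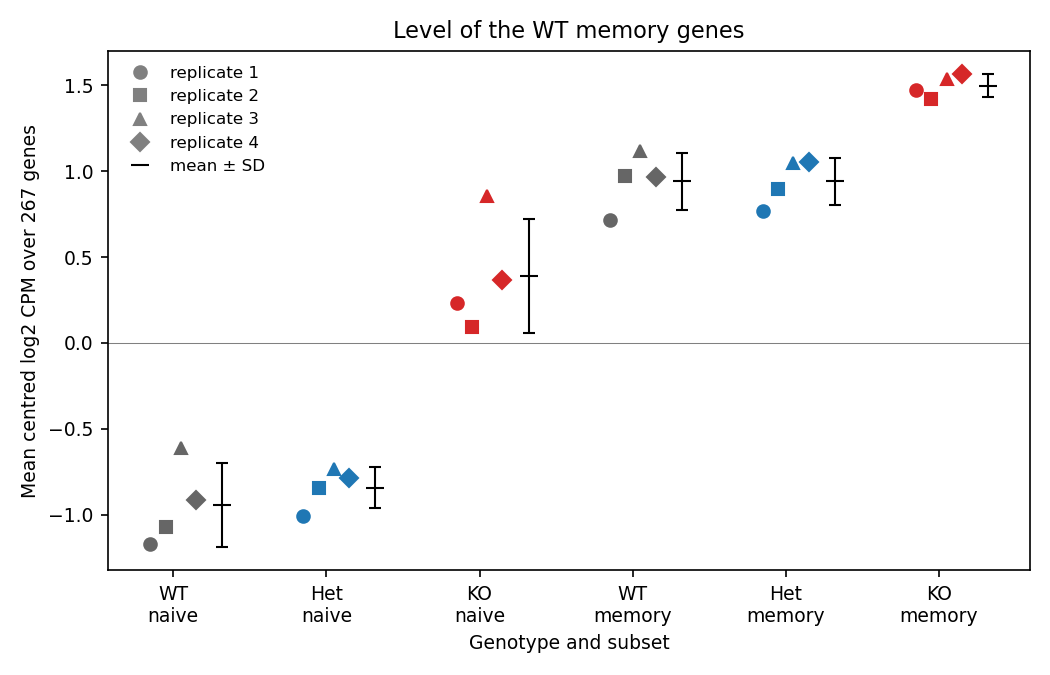
Mean centred log2 CPM over the 267 genes higher in WT memory than in WT naive libraries (y axis) for each naive and memory library by genotype (x axis), with the group mean ± SD (n = 4). Het naive libraries (-1.0 to -0.73) sit among the WT naive ones, and 3 of the 4 KO naive libraries sit between naive and memory levels, with replicate 3 (0.86) inside the memory range.

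Genes that keep CD8 T cells naive did not move as a block. Of 23 tested, 8 were called lower, 5 higher and 10 in neither direction, with a median difference of -0.06. Lef1, whose product keeps T cells in the naive programme, fell from 1247, 1305, 1160.0 and 1206 CPM in the Het libraries to 836, 751, 687 and 746 CPM in the KO libraries. The highest KO value was below the lowest Het value, and the difference was -0.70 ± 0.07 (adjusted p = 3.86e-10). Ccr7, the receptor that brings naive cells to lymph nodes, was 134, 140.2, 126 and 140.4 CPM in Het and 81.5, 94.7, 87.4 and 98.5 CPM in KO. The difference of -0.58 ± 0.09 (adjusted p = 4.85e-06) again came without overlap.

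Tcf7, which encodes TCF1, the partner of LEF1, went the other way. It stood at 845, 820.1, 836 and 878 CPM in Het and 1022, 1049, 937 and 1034 CPM in KO, a difference of 0.26 ± 0.06 (adjusted p = 0.00295). That call was lost under mean log centring, with 0.12 and an adjusted p of 0.239. Igfbp4, a growth factor binding protein gene listed here for its high level in naive cells, fell from 76.0 ± 10.5 to 16.4 ± 4.91 CPM, a difference of -2.21 ± 0.22. Satb1, a chromatin organiser of T cells, fell by less, from 2258 ± 69.6 to 1712 ± 22.4 CPM (difference -0.40 ± 0.05, adjusted p = 2.98e-07). Het against WT differences were -0.01 ± 0.07 for Lef1, 0.002 ± 0.09 for Ccr7 and -0.01 ± 0.20 for Igfbp4, and none was called.

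Transcription factors of the Ikaros, Id, E protein and KLF families, and others listed with them, were called higher more often than lower. Of 24 tested, 12 were called higher and 1 lower, beside 10.5% and 6.5% of all tested genes, and 6 were called higher without KO replicates 3 and 4. Ikzf2, which encodes Helios, was at 49.1, 69.2, 101 and 89.6 CPM in Het and 295, 417, 408 and 351 CPM in KO. The lowest KO value was far above the highest Het value (difference 2.25 ± 0.23, adjusted p = 2.31e-08). Runx2, a Runx family factor, went from 92.3 ± 25.9 to 381 ± 59.6 CPM, a difference of 2.05 ± 0.20. Tcf4, an E protein gene, and Myb, a factor of progenitor and stem-like cells, were higher by 2.03 ± 0.19 and 1.73 ± 0.19. Id2, an inhibitor of E proteins, overlapped between the groups at 121 to 178 CPM in Het and 140.4 to 171 CPM in KO (difference 0.04 ± 0.17, adjusted p = 0.929).

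Most of the innate-like T cell genes that could be tested were higher. Of the 20 listed, 8 were tested, 6 were called higher, 0 lower and 2 in neither direction. Zbtb16, which encodes PLZF, the factor that directs innate-like T cells, had 0.196, 0.297, 0.709 and 0.368 CPM in Het and 9.54, 11.9, 5.16 and 10.4 CPM in KO. Here KO replicate 3 was the lowest of the KO libraries, and the difference was 4.57 ± 0.51 (adjusted p = 1.51e-08). Cd160, a receptor of innate-like and cytotoxic cells, went from 2.18 ± 0.357 to 7.37 ± 0.360 CPM, a difference of 1.76 ± 0.22. Gata3, known for its part in T helper and early T cells, was higher by 0.62 ± 0.09, and Sh2d1a, the adaptor of SLAM receptors, by 0.78 ± 0.17. Sh2d1a lost its call without KO replicates 3 and 4, at 0.28 and an adjusted p of 0.328, and with the compared libraries only (adjusted p = 0.0543).

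The lists of recent activation and of inhibitory receptor genes each held a larger share of genes called higher than the 10.5% of all tested genes. Of 22 activation and immediate early genes tested, 6 were called higher and 0 lower, with a median of 0.33. With the compared libraries only, 6 were called higher and 2 lower. The phosphatase gene Dusp5 went from 12.8 ± 2.98 to 27.0 ± 8.84 CPM (difference 1.09 ± 0.21), and Nr4a1, an early target of the T cell receptor, from 7.19 ± 1.35 to 13.2 ± 1.14 CPM (0.88 ± 0.18). Fosl2 and Batf, AP-1 family factors, were higher by 0.74 ± 0.14 and 0.53 ± 0.12. Of 14 heat shock and sorting stress genes tested, 0 were called. The inhibitory receptor list gave 4 calls higher and 0 lower of 10 tested, and 2 higher and 1 lower with the compared libraries only. The calls were the receptor genes Cd160 and Ctla4, and Tox2 and Entpd1, which do not encode inhibitory receptors and had few counts. Ctla4 was at 1.44 ± 1.08 CPM in Het and 3.94 ± 1.15 CPM in KO (difference 1.43 ± 0.35, and 2.02 without Het replicate 4). Tox2, a factor linked to exhausted cells, had 0 counts in Het and 15 in KO, at least 4.68-fold higher. Entpd1, which encodes CD39, had 2 counts in Het and 19 in KO, a ratio of 8.88 with a 95% counting interval of 2.14 to 78.7. The Entpd1 call was lost without KO replicate 4, Het replicate 2 or Het replicate 4 (adjusted p = 0.107, 0.0533 and 0.0581) and without KO replicates 3 and 4 (adjusted p = 0.132), and its fitted difference was 5.28 without Het replicate 1.

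T cell receptor signalling genes were called lower more often than higher. Of 33 tested, 9 were lower and 3 higher, while the list's median of -0.004 matched that of all genes. Cd247, the signalling zeta chain of the receptor, was 48.7, 51.8, 46.6 and 47.8 CPM in Het and 31.4, 33.1, 36.2 and 29.8 CPM in KO. All KO values were below all Het values, with a difference of -0.58 ± 0.09 (adjusted p = 2.44e-06). Cd5 and Cd6, surface receptors that temper T cell receptor signals, fell from 9.61 ± 1.10 to 5.0 ± 0.685 CPM and from 66.5 ± 5.29 to 42.3 ± 6.76 CPM. Their differences were -0.94 ± 0.15 and -0.66 ± 0.10. Among 12 CD8 T cell identity genes 1 was called, the costimulatory receptor gene Cd28 (difference 1.34 ± 0.42, adjusted p = 0.0214), a call lost without KO replicate 2 or 3 (adjusted p = 0.0587 and 0.127), without KO replicates 3 and 4 (0.138) and without Het replicate 1 or 4 (0.056 and 0.0744).

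Of 20 cytokine receptor genes tested, 5 were called higher and 1 lower, beside 10.5% and 6.5% of all tested genes. Il6st, the shared chain gp130, was 129, 122, 122 and 114 CPM in Het and 69.7, 68.7, 54.2 and 66.2 CPM in KO. It was the 1 cytokine receptor gene called lower, by -0.91 ± 0.10 (adjusted p = 4.01e-09). Il10ra, a chain of the interleukin-10 receptor, and Il18rap, a chain of the interleukin-18 receptor, were higher by 2.93 ± 0.66 and 1.57 ± 0.39. Il7r, the survival receptor of resting T cells, was at 4.12 ± 0.808 CPM in Het and 7.67 ± 2.34 CPM in KO (difference 0.88 ± 0.27, adjusted p = 0.0202). That call was lost without KO replicate 2 (0.67, adjusted p = 0.117) without Het replicate 1 (0.79, adjusted p = 0.0752) and without Het replicate 4 (0.85, adjusted p = 0.0548). In the BCL2 family, Bcl2l11, which encodes the death inducer BIM, was higher by 1.27 ± 0.15, and the survival gene Mcl1 lower (-0.34 ± 0.08). The family gave 1 call higher and 2 lower of 9 tested, too few to read as a result for the family.

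Adhesion and migration genes changed in both directions. Of 22 integrin and adhesion genes tested, 11 were called higher and 2 lower, with a median of 0.58. Nrp1, the co-receptor neuropilin 1, stood at 2.65, 1.58, 1.42 and 1.66 CPM in Het and 29.7, 28.4, 34.5 and 31.8 CPM in KO. The KO values were close together, and the difference was 4.07 ± 0.20 (adjusted p = 9.46e-20). Itgb3, the integrin beta 3 chain, went from 11.7 ± 2.46 to 36.0 ± 8.05 CPM (1.62 ± 0.15), and Itga4, the alpha 4 chain, from 129 ± 27.9 to 215 ± 31.8 CPM (0.73 ± 0.15). Itga6, the alpha 6 chain, moved the other way, from 74.0, 70.2, 69.8 and 79.5 CPM in Het to 28.6, 33.6, 38.9 and 39.7 CPM in KO (difference -1.06 ± 0.11, adjusted p = 2.05e-10). Among 14 chemokine receptor and migration genes, 5 were called higher and 3 lower. Cxcr4, a receptor for homing to bone marrow, went from 59.6 ± 12.3 to 114 ± 23.3 CPM (0.94 ± 0.14).

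Regulators of phosphoinositides and small GTPases, which relay signals at the inner membrane, changed in both directions. Of 34 tested, 10 were called higher and 10 lower, beside 10.5% and 6.5% of all tested genes. Inpp4b, a phosphoinositide phosphatase, fell from 499, 513, 524 and 509 CPM in Het to 187, 228, 191 and 223 CPM in KO. Both groups were tight, and the difference was -1.30 ± 0.07 (adjusted p = 1.37e-17). Plce1, a phospholipase C gene, was 4.13, 6.04, 3.90 and 4.14 CPM in Het and 0.0844, 0.657, 0 and 0.249 CPM in KO, from 181 counts in Het and 10 in KO. Its difference of -4.20 ± 0.39 was -5.12 without KO replicate 2. Kalrn, an exchange factor for small GTPases, and Cdc42bpa, a kinase bound by CDC42, were higher by 3.75 ± 0.37 and 3.32 ± 0.29.

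The genes with the largest differences, among those called without overlap between groups and averaging 1 or more in log2 CPM over the 8 libraries, came from several of these groups. The 10 highest were Dapk2, Gas7, Zbtb16, S100a6, Soat2, Osbpl3, Nrp1, Ncald, Bhlhe40 and Ccl5, with differences of 4.78 down to 3.84. Soat2, an enzyme that esterifies cholesterol, had 1.08, 1.29, 1.77 and 1.10 CPM in Het and 27.3, 21.6, 29.6 and 23.6 CPM in KO. These groups were both tight (difference 4.29 ± 0.22, adjusted p = 6.01e-19). Gas7, by contrast, was uneven in KO, at 0.196, 0.891, 1.18 and 0.736 CPM in Het and 9.79, 3.40, 50.4 and 14.5 CPM in KO. Its difference was 4.69 ± 0.73, and 3.67 without KO replicate 3. Osbpl3, an oxysterol-binding protein gene, likewise went from 4.20 to 3.40 without that library. The death-associated kinase gene Dapk2 was at 0.444 ± 0.316 CPM in Het and 12.2 ± 7.61 CPM in KO (4.78 ± 0.54, and 4.0 without KO replicates 3 and 4). None of the 10 highest genes was called between Het and WT. Their Het against WT differences were positive for Zbtb16 (1.92 ± 1.10), Nrp1 (0.82 ± 0.31), Soat2 (0.81 ± 0.38), Ncald and Bhlhe40. They were negative for Gas7 (-1.28 ± 1.11), Osbpl3 (-0.76 ± 0.81), S100a6 (-0.64 ± 0.60), Dapk2 and Ccl5.

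The 10 lowest by the same rule were Slc35g1, Pcsk1, Igfbp4, Racgap1, Rgmb, Kif23, Trim59, Tuba3a, Gabrr2 and Cdkn2c, with differences of -2.52 to -1.32. Cdkn2c lost its call without KO replicates 3 and 4 (-1.33, adjusted p = 0.057). Slc35g1, a solute carrier family gene, went from 7.86, 7.33, 7.80 and 7.36 CPM in Het to 1.94, 0.986, 1.08 and 1.16 CPM in KO. Gabrr2, a subunit of a receptor for the neurotransmitter GABA, went from 72.7 ± 6.30 to 28.5 ± 4.13 CPM (-1.35 ± 0.14). Pcsk1, a protein convertase gene, was at 3.50 to 8.06 CPM in Het and 0.986 to 1.94 CPM in KO. Het against WT differences of these 10 genes ran from -0.33 for Slc35g1 to 0.12 for Gabrr2, and none was called.

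Of these 10 genes, Racgap1, Kif23 and Trim59 also belong to the mitosis list, of which 26 genes were tested. Racgap1 and Kif23 encode the partners of centralspindlin, the complex that organises the middle of the spindle at cytokinesis, and Trim59 encodes a ubiquitin ligase. Racgap1 was 32.4, 34.4, 39.0 and 34.1 CPM in Het and 8.02, 8.54, 9.35 and 8.78 CPM in KO, with a WT mean of 32.6 CPM. The KO libraries were all far below the Het libraries (difference -2.01 ± 0.12, adjusted p = 5.92e-17). Kif23 went from 38.0, 32.5, 36.2 and 35.4 CPM to 10.5, 17.4, 8.49 and 11.1 CPM (-1.59 ± 0.20), and Trim59 from 7.27, 7.13, 6.38 and 6.17 CPM to 2.70, 2.08, 1.61 and 2.57 CPM (-1.56 ± 0.18). The rest of the list did not follow: 3 members were called higher (Aurkb, Stmn1 and Cenpe), 20 were not called, and the median was 0.68. Of the 26 tested, 2 had 0 counts in Het and so could not be lower in KO. Aurkb, a mitotic kinase gene, had 0 counts in Het and 12 in KO, at least 3.74-fold higher, and its call was lost without KO replicates 3 and 4 (adjusted p = 0.0547). Under the replicate block 6 mitosis genes were called higher, and 1 without KO replicate 3. Of 29 DNA replication genes tested, 2 were called higher, Tyms and Mcm2, and 0 lower, and without KO replicates 3 and 4 none was called (Tyms 0.75, adjusted p = 0.123, and Mcm2 0.25, adjusted p = 0.0511). The Mcm2 call was also lost without KO replicate 1 or Het replicate 2, with no filter on low counts and under mean log centring, with adjusted p-values of 0.0664, 0.0519, 0.0627 and 0.302.

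The promoters of these 3 genes are shown because the genes fell together within a list that did not. Each is 250 bases before to 50 bases after the start of transcription, from RefSeq on GRCm38.p6, 5′ to 3′ on the minus strand, with capitals for TTTGAA or its reverse complement TTCAAA, the core of the CHR element of many cell cycle promoters. The positions are chr9:61946750-61947049 for Kif23, chr15:99651607-99651906 for Racgap1 and chr3:69044693-69044992 for Trim59.
Kif23: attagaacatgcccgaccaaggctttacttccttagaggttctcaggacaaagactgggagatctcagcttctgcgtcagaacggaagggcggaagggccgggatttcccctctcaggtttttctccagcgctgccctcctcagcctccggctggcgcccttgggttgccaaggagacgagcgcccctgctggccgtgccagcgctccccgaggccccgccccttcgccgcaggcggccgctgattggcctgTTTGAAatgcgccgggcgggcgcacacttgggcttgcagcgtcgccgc
Racgap1: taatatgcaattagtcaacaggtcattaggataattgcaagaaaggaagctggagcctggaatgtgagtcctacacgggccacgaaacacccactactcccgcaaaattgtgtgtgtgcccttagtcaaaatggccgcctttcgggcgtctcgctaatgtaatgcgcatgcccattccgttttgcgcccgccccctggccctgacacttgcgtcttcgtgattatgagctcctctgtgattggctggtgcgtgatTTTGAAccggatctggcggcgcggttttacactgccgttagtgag
Trim59: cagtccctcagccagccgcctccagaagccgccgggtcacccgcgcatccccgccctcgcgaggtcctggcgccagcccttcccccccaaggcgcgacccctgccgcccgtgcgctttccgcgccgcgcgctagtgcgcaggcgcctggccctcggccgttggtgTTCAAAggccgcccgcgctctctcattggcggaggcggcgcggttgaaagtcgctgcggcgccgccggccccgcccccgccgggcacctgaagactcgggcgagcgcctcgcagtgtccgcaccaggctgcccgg
On both strands, 20.2% of 27025 genes with a promoter of this length held this motif. It was in 18 of the 21 mitosis genes that had a promoter, in 3 of the 3 that were called lower and in 15 of the other 18. A match of these letters is a description of the sequence, made after the values were seen.

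Chromatin regulators are read against the 16.9% of all tested genes that were called. Of 27 genes of the DOT1L complex and of elongation, 1 was called, the elongation factor gene Ell2, higher by 1.92 ± 0.36 (0.982, 1.58, 0.709 and 0.736 CPM in Het and 2.36, 3.83, 4.52 and 4.72 CPM in KO). In PRC2, the complex that methylates lysine 27 of histone H3, the catalytic subunit gene Ezh2 was 65.4, 68.0, 79.4 and 73.7 CPM in Het and 41.8, 47.6, 46.9 and 48.7 CPM in KO. The groups did not overlap, with a difference of -0.63 ± 0.12 (adjusted p = 1.21e-04). The accessory subunit gene Phf19 rose from 3.83, 3.07, 3.55 and 3.96 CPM to 16.0, 14.6, 13.4 and 11.2 CPM (1.93 ± 0.24), and the other 10 of 12 PRC2 genes were not called. Among 38 histone lysine methyltransferase and demethylase genes, 4 were called higher and 3 lower. Kdm6b, a demethylase acting on the PRC2 mark, was higher by 0.41 ± 0.10, and the methyltransferase genes Nsd3 and Kmt2c were lower, with -0.30 ± 0.06 and -0.29 ± 0.07. The Kmt2c call was lost without KO replicates 3 and 4 (-0.20, adjusted p = 0.114). Under mean log centring, 7 PRC2 genes and 5 genes of the DOT1L complex and of elongation were called lower. So were 9 histone lysine methyltransferase and demethylase genes, and 1 gene of each of these lists was called higher. Of 16 HOXA genes and cofactors listed, 10 were tested and 3 called, all cofactors and all higher: Pbx3 (1.32 ± 0.30), Pbx2 (0.31 ± 0.09) and Meis3 (0.31 ± 0.09). The last 2 lost their calls under mean log centring. Pbx2 also lost its call without KO replicate 2 or Het replicate 1 or 4 (adjusted p = 0.0787, 0.0583 and 0.0535). Meis3 did so without KO replicate 3 (0.122), KO replicates 3 and 4 (0.265) or Het replicate 2 or 3 (0.058 and 0.0737) and with no filter on low counts (0.0822), again as adjusted p-values.

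Metabolic genes are likewise read against the 16.9% of all tested genes that were called. Of 23 cholesterol genes tested, 3 were higher and 1 lower, a share close to the 16.9% of all tested genes. Besides Soat2, these were Mylip, which marks the LDL receptor for degradation, at 0.56 ± 0.10, the cholesterol exporter gene Abca1 at 0.71 ± 0.24, and Srebf2, the master regulator of cholesterol synthesis, which fell from 247, 211, 256 and 228 CPM to 159, 165, 136 and 168 CPM (-0.58 ± 0.08, adjusted p = 4.01e-07). The Abca1 call (adjusted p = 0.0378) was lost in several alternatives: without KO replicate 3 (adjusted p = 0.0921), KO replicate 4 (0.162) or Het replicate 1, 2 or 3 (0.114, 0.108 and 0.0756), with no filter on low counts (0.0756), with the compared libraries only (0.0954) and under mean log centring (0.0633). Without KO replicates 3 and 4 its difference was 0.35 (adjusted p = 0.511). Of 20 glycolysis and glucose transport genes, 3 were higher, including hexokinase 2 (Hk2, 1.01 ± 0.19), and 2 lower, Hif1a (-0.42 ± 0.08) and Pgk1 (-0.33 ± 0.07). The median over that list was -0.05, and so few calls are not read as a result for the list. Under mean log centring, 6 cholesterol genes and 8 glycolysis and glucose transport genes were called lower, and 2 of each list higher.

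Interferon stimulated genes were higher at 9 of 23 tested and lower at 1, with a median of 0.66, beside 10.5% and 6.5% of all tested genes. Without KO replicate 3 the number higher was 7, and without KO replicate 4 it was 12. With the compared libraries only it was 5, and the lowest over all alternatives was 4. Rsad2, the antiviral protein viperin, was 1.96, 4.75, 2.25 and 1.75 CPM in Het and 9.20, 8.43, 7.53 and 4.47 CPM in KO. The groups overlapped between Het replicate 2 and KO replicate 4 (difference 1.46 ± 0.29, adjusted p = 3.25e-04). Ifih1, a sensor of viral RNA, was higher by 0.81 ± 0.18.

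The natural killer genes Ncr1, Klrb1c and Tyrobp, and Cd4 and Trdc, were at or near 0. Some other markers of CD4, gamma delta T, B and erythroid cells were present. Of 14 natural killer cell markers, 6 had 0 counts in all 8 libraries, the defining receptor gene Ncr1 among them, and Klrb1c and Tyrobp had at most 1 count in any library. The summed level of the list was 46.9 to 67.4 CPM in Het and 118 to 187 CPM in KO, and most of it was Eomes, which CD8 T cells share. Of the 4 natural killer cell markers tested, 2 were called higher in KO, Eomes and the integrin gene Itga2, and 0 lower. Cd4 had at most 1 count and Trdc, the delta chain of gamma delta T cells, 0. The 10 CD4 and regulatory T cell markers summed to 11.0 to 18.8 CPM in Het and 12.2 to 17.7 CPM in KO. Among them Zbtb7b was at 0.396 to 0.736 CPM in Het and 0.548 to 8.39 CPM in KO. Foxp3 was at 0.792 to 1.47 CPM in Het and 0 to 0.675 CPM in KO. The gamma delta marker Sox13 was at 0.295 to 3.31 CPM in Het and 0.323 to 1.99 CPM in KO. The 10 gamma delta markers summed to 3.44 to 9.81 CPM in Het and 13.1 to 22.7 CPM in KO, and the gene called among them was Maf, a factor also used by other T cells (1.97 ± 0.33). The B cell gene Ighm was at 145 to 250.5 CPM in the 8 libraries, most of the summed B cell level in all but KO replicate 4, and H2-Aa at 73.2 CPM in KO replicate 4 and 1.42 to 19.6 CPM in the others. Of 12 B cell markers tested, 1 was called, Cd22, with 3 counts in Het and 41 in KO. Its ratio of 12.8 had a 95% counting interval of 4.08 to 64.5, and the call was lost without KO replicates 3 and 4 (adjusted p = 0.524). Pax5, the defining factor of B cells, was at 35.7 CPM in KO replicate 4 and 1.18 to 6.03 CPM in the other 7 libraries. Of 2 myeloid markers tested, 0 were called. Erythroid and platelet markers summed to 5.08 to 84.5 CPM in Het and 5.27 to 45.9 CPM in KO, with 0 called of 5 tested. The part of these markers in the counts of calls was not tested beyond leaving out libraries: 1470 genes were called without KO replicate 3, 1600 without KO replicate 4 and 1173 without both.

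Genes with the clearest intermediate level in Het were looked for among the 6 lowest p-values of Het against WT, chosen after the values were seen, since none was called. Plxna1, a semaphorin receptor gene (chr6:89316314-89362620), was 6.71, 6.77, 8.24 and 7.64 CPM in WT, 12.6, 13.7, 9.69 and 14.3 CPM in Het and 24.1, 22.9, 16.0 and 18.9 CPM in KO. The 3 groups did not overlap, and Het lay 0.76 ± 0.16 above WT (adjusted p = 0.333) and KO 0.70 ± 0.15 above Het (adjusted p = 3.62e-04). Without a filter on low counts it was the 1 gene called between Het and WT, at 0.78 and an adjusted p of 0.0053.

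Plcb4, a phospholipase C beta gene, had 7.36, 6.64, 6.06 and 5.34 CPM in WT, 7.96, 11.8, 9.57 and 11.4 CPM in Het and 18.2, 20.9, 15.1 and 19.7 CPM in KO, also in separate ranges. Flot1, a membrane scaffold gene, was at 68.9 to 87.6 CPM in WT, 89.5 to 103 CPM in Het and 125 to 151 CPM in KO. The Het against WT differences of 0.71 ± 0.17 and 0.29 ± 0.09 had adjusted p-values of 0.969 and 1. The other 3 genes, Ypel2, Mpp4 and Tssk2, differed between KO and Het by 0.19, -0.21 and -0.63, and none of them was called in KO against Het.

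The same contrast in thymus and memory CD8 libraries, which share no library with the naive ones, called 1971 (19.1%) and 2082 (20.2%) genes. In thymus, 1221 (11.9%) were higher and 750 (7.28%) lower, and in memory cells 1198 (11.6%) higher and 884 (8.59%) lower. Of the 1076 genes higher in naive KO, 708 were also higher in memory KO, which is 65.8% of the naive list and 59.1% of the memory list. In thymus the shared number was 565, or 52.5% of the naive list and 46.3% of the thymus list. Of the 669 genes lower in naive KO, 425 were lower in memory KO (63.5% and 48.1% of the lists) and 262 in thymus KO (39.2% and 34.9%). Opposite calls were few, 15 genes for memory and 36 for thymus. The labels do not say whether subsets came from the same mice.

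Tested directly, the KO against Het difference was larger or smaller in naive cells than in thymus cells for 496 genes (4.82%), higher at 223 (2.17%) and lower at 273 (2.65%). Against memory cells it differed for 198 (1.92%), higher at 133 (1.29%) and lower at 65 (0.631%). Racgap1 differed from thymus by -2.28 ± 0.16, the lowest that the naming rule picked: it fell in naive cells but was 0.27 ± 0.10 in thymus and -1.79 ± 0.11 in memory. Kif23 and Trim59 differed from thymus in the same direction, by -1.66 and -1.14. Ezh2 did too, by -0.65 ± 0.16 (adjusted p = 0.0126), with a thymus value of 0.01 ± 0.11. The gains of Lmna, which encodes lamin A, and Ikzf2 exceeded those in thymus by 2.48 and 2.21. Coro2a and Ust, uncalled in naive cells at -0.50 ± 0.19 and 0.27 ± 0.17, rose in thymus by 1.56 ± 0.18 and 2.41 ± 0.29. Coro2a was called lower in naive cells in some alternatives: with the compared libraries only (adjusted p = 0.0154), in DESeq2 (0.0346), with the sex covariate (0.0321), under mean log centring (0.00767) and without Het replicate 1 (0.0376).

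Against memory cells, several of the memory genes described above differed. Cd44 was -0.06 ± 0.22 and Tbx21 0.24 ± 0.22 in memory KO against Het, which left naive cells higher by 2.44 ± 0.39 (adjusted p = 2.02e-04) and 1.86 ± 0.34 (adjusted p = 0.00159). Il2rb and Cxcr3 differed by 1.21 ± 0.26 and 1.89 ± 0.38. Gas7, Dapk2 and Plek, the last a platelet and leukocyte signalling gene, had the highest differences, 4.16, 3.45 and 3.33. Those of Gas7 and Plek were lost when the fit held the compared libraries only (adjusted p = 0.0961 and 0.0987) and without KO naive replicates 3 and 4 (2.67, adjusted p = 0.0644, and 1.97, adjusted p = 0.147). Jup, a junction protein gene, rose in naive KO by 2.06 ± 0.19 and in memory KO by 5.04 ± 0.27. Id2 and Mmp15 were uncalled in naive cells and rose in memory KO by 2.22 ± 0.17 and 2.69 ± 0.29. Lef1, Ccr7 and Eomes showed no called difference between naive and memory cells, with -0.21 ± 0.10, -0.08 ± 0.13 and 0.34 ± 0.23.

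**Figure D4:**
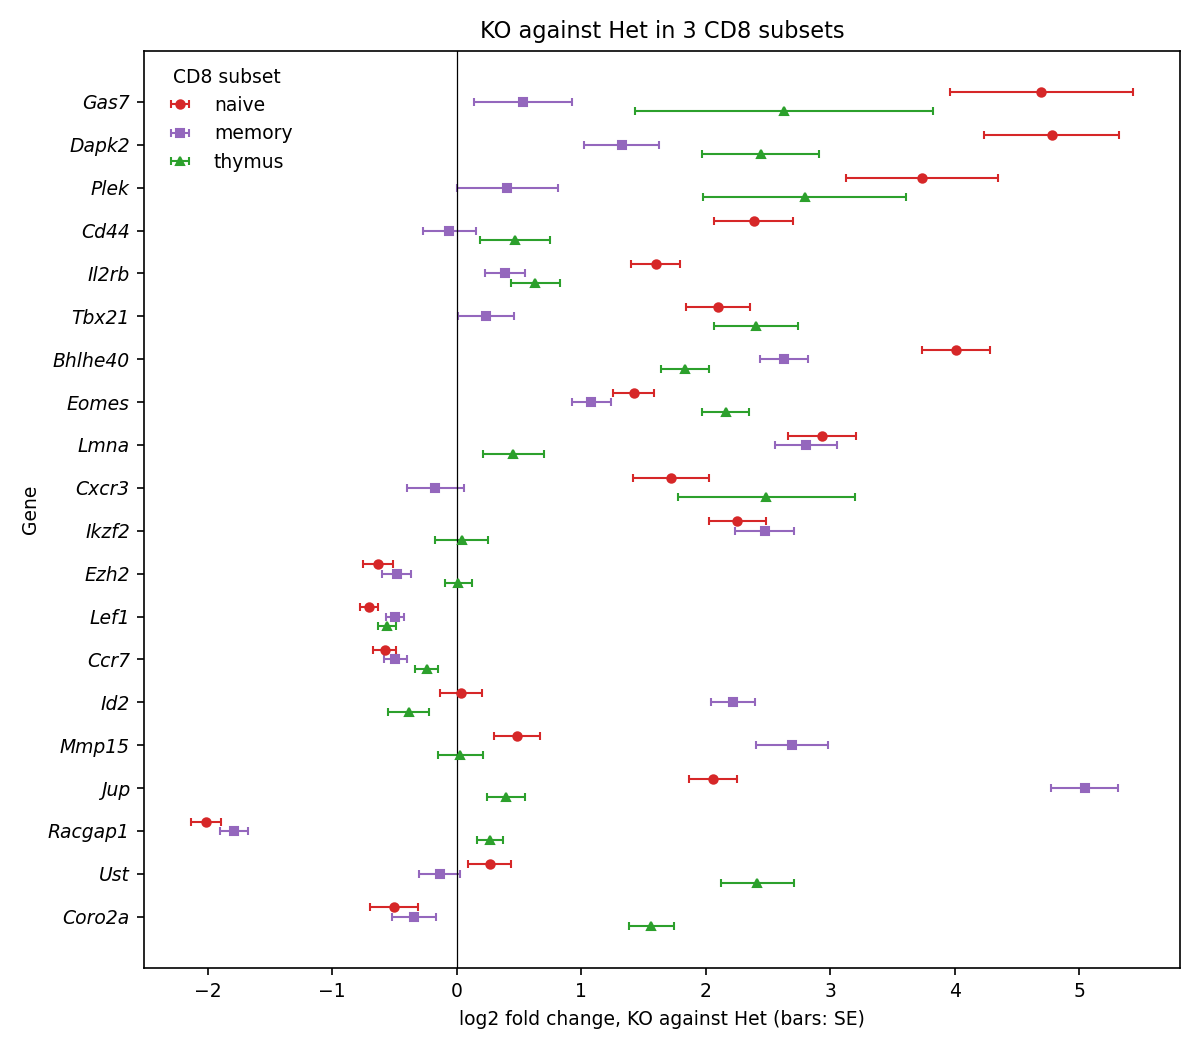
KO against Het log2 fold change (x axis, bars ± SE) of 20 genes (y axis) in naive, memory and thymus CD8 libraries. Racgap1 falls in naive and memory but not thymus cells, Cd44 and Tbx21 stand near 0 in memory cells, and Id2, Mmp15 and Jup reach their highest values in memory cells.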

How the data were processed

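RNA of sorted CD8 T cells was sequenced as 65-base single reads from strand-specific TruSeq mRNA libraries, per the labels' protocols. The authors deposited 1 table of raw counts per gene for 35 libraries. Per the submitters' processing notes, HTSeq 0.9.1, TopHat and TopHat2 2.1.0 were used, on builds named GRCm38 or mm10. Which annotation and which strand setting were used for counting is not given in the sources used here. Symbols and positions came from GENCODE M21 (GRCm38), and 52489 of 52636 gene identifiers had one.

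Counts were tested with edgeR 4.0.16 in R 4.3.3: filterByExpr over the 9 groups, TMM factors (0.927 to 1.07) and robust quasi-likelihood fits over all 35 libraries with 26 residual degrees of freedom. The 3 thymus WT libraries and all other groups of 4 share that estimate of spread. P-values were adjusted by Benjamini-Hochberg over 10296 tested genes, and a gene was called below 0.05. A standard error is the size of the log2 fold change divided by the root of its F statistic. Log2 CPM used a prior count of 2. Naive libraries held 4809509 to 11520379 counts, and intervals and floors (3 counts over the Het group) cover counting error only. The scripts were tested on simulated data.

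The members and lists were chosen with earlier results of these data known. Named genes are Dot1l, a set of key genes, the 10 highest and 10 lowest differences (called, no overlap between groups, log2 CPM averaging 1 or more, no predicted or receptor segment model), up to 4 members of each list with the lowest adjusted p, and the 3 highest and 3 lowest of each difference between subsets. A few genes that this rule names are not reported here. Others are marked as chosen after their values were seen or are named to complete a count. KO and Het naive libraries of the same replicate number deviated together (correlations 0.144 to 0.262, against -0.163 to 0.0783 for other pairs). The main fit did not use this pairing, so the errors, p-values and calls given are unpaired unless marked. A replicate block was fitted as an alternative. Same-numbered Het and WT libraries did not all deviate together (0.00658 to 0.241). The check of CpG content in promoters was void, since 75.8% of tested genes had a promoter sequence in the table. Alternatives were RLE scaling, mean log centring, other filters, a fit that is not robust, a sex covariate, the compared libraries only, DESeq2 1.42.0, the replicate block and leaving out libraries. Those of the memory gene level were added after seeing the data.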

Additional observations from a re-analysis of the deposited data

Results flagged for a closer look

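In 14 of 210 groups of 4 naive libraries checked over 104 named genes, 1 library lay further from the other 3 than Dixon's 95% critical value allows, and chance gives about 1 in 20. KO replicate 3 was high for Bhlhe40 (26.4 CPM), Cd44 (18.0 CPM) and Osbpl3 (28.8 CPM), which are memory, effector or lipid-binding genes. The other KO libraries that stood apart were replicate 1 for Pcsk1 (1.94 CPM) and replicate 4 for Mx1 (5.05 CPM). Among Het libraries, replicate 1 stood apart for Entpd1 (0.196 CPM). Het replicate 2 did so for the interferon stimulated genes Rsad2 (4.75 CPM) and Mx1 (5.84 CPM), and for Tuba3a (18.6 CPM), Plce1 (6.04 CPM) and Kalrn (0.297 CPM). Het replicate 3, the female library of the group, did so for Rgmb (6.97 CPM), Hk2 (4.14 CPM) and Pbx3 (2.95 CPM).

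The KO against Het log2 fold change differed between naive cells and another subset, by an adjusted p below 0.05 of the difference itself in edgeR, in 34 of 78 tests over 39 named genes. Some of these genes were named because such a difference was already called, and others for their large naive differences. The count therefore describes that choice. Over all tested genes the share was 4.82% against thymus and 1.92% against memory. Against thymus cells, the naive value was higher for Lmna (2.48), Ikzf2 (2.21), Bhlhe40 (2.18), Cd44 (1.92), Nrp1 (1.88), Jup (1.67), Ncald (1.64), Il2rb (0.97) and Tcf7 (0.30). It was lower for Racgap1 (-2.28), Ust (-2.15), Coro2a (-2.07), Slc35g1 (-1.95), Igfbp4 (-1.92), Kif23 (-1.66), Cdkn2c (-1.53), Trim59 (-1.14) and Ezh2 (-0.65). Against memory cells, the naive value was higher for Gas7 (4.16), Dapk2 (3.45), Plek (3.33), Osbpl3 (3.23), S100a6 (3.19), Ccl5 (2.66), Cd44 (2.44), Cxcr3 (1.89), Tbx21 (1.86), Soat2 (1.85), Ncald (1.5), Bhlhe40 (1.38) and Il2rb (1.21). It was lower for Jup (-2.98), Mmp15 (-2.21) and Id2 (-2.18). Genes of the last group rose more in memory KO cells, and the adhesion gene Jup is on both sides, with a naive difference above the thymus one and below the memory one.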

How the results depend on the processing

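Mean log centring moved the KO against Het calls to 2854 genes, 2025 of them lower, and the KO against WT genes called lower to 1838. No filter on low counts gave 1 gene between Het and WT, called higher. With the compared libraries only, 169 genes were lower in naive than in thymus cells. Without KO replicates 3 and 4, KO against Het gave 714 genes higher, KO against WT 1240 genes, 752 of them higher, and the difference from thymus 326 genes, 116 of them higher. The replicate block gave 1859 KO against Het calls, 1119 higher and 740 lower, and moved none of these counts by over 1.5 times. Leaving out single libraries gave 1417 to 1600 calls for KO against Het, 0 for Het against WT and 1573 to 1752 for KO against WT. For the difference from thymus it gave 353 to 507, with 143 to 212 higher, the lowest without Het replicate 1, and for the difference from memory 160 to 200. RLE scaling, the sex covariate, the stricter filter, the fit that is not robust and DESeq2 kept every one of these counts within 1.5 times.

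Of 2149 alternative values for 115 gene results, 2074 kept direction and call, 63 lost the call, 6 gained it and 6 changed sign. The sign changes were at 2 uncalled genes: Dot1l (-0.048) under mean log centring, and Id2 under mean log centring (-0.11) and without KO replicates 3 and 4 (-0.0054), KO replicate 3 (-0.025), Het replicate 2 (-0.0080) or Het replicate 3 (-0.048), within -0.048 to 0.14 over single left-out libraries. The cause was not tested. Values also moved by over 1.5 times without KO replicate 3 for Plek (2.73) and Zbtb7b (2.01), and in DESeq2 for Tox2 and Aurkb, whose Het counts are 0. At these depths a gene with few Het counts has wide intervals, and Het against WT differences of several standard errors could go uncalled.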

Other observations

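Markers of immature thymocytes and of CD4 lineage cells gave mixed calls in naive KO cells. Of 10 immature thymocyte markers tested, 2 were called higher and 1 lower. Ccr9, a gut and thymus homing receptor, was 71.1, 58.6, 63.1 and 63.0 CPM in Het and 38.3, 40.3, 13.9 and 31.0 CPM in KO, with KO replicate 3 the lowest (difference -1.05 ± 0.19, adjusted p = 1.18e-04). That call was lost when the fit held the compared libraries only (adjusted p = 0.0694). Dntt, the template-free polymerase of receptor rearrangement, had 0.589, 0.594, 0 and 0.828 CPM in Het and 1.94, 1.97, 1.08 and 1.49 CPM in KO (difference 1.61 ± 0.42, adjusted p = 0.00504).

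Of 5 CD4 and regulatory T cell markers tested, 2 were called higher and 2 lower. Zbtb7b, which encodes the CD4 lineage factor ThPOK, was 0.491, 0.396, 0.591 and 0.736 CPM in Het and 2.03, 0.548, 8.39 and 3.98 CPM in KO. KO replicate 2 overlapped the Het libraries, the difference was 2.71 ± 0.62 (adjusted p = 0.00206), and it was 1.26 with an adjusted p of 0.249 without KO replicates 3 and 4. Izumo1r, the folate receptor 4 gene of regulatory and naive T cells, went from 3.02 ± 0.535 to 1.26 ± 0.338 CPM (difference -1.29 ± 0.28). Foxp3, the factor of regulatory T cells, had 45 counts in Het and 17 in KO (difference -1.48 ± 0.52, adjusted p = 0.0415), a call that leaving out KO replicate 3 or 4 ended (adjusted p-values 0.157 and 0.125), as did leaving out Het replicate 1, 3 or 4 (0.0677, 0.0732 and 0.124). Without KO replicates 3 and 4 its difference was -0.76.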
